A study of Mus musculus with 4 samples.

Results

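The miRNAs described here are 7 that are known from airway and other epithelia: mmu-miR-183, mmu-miR-96 and mmu-miR-182, which form a cluster, together with mmu-miR-203, mmu-miR-205, mmu-miR-31 and mmu-miR-375. The prefix for mouse is left out below. They were taken by name from a panel of 750 mouse and rat miRNA assays read by quantitative PCR in mouse lung. Of the 7 names, 6 matched the panel's miRNA identifiers exactly, and miR-375 is listed there with its arm, as miR-375-3p. Each of 4 groups had 1 library of right lung: neonatal mice in room air, neonatal mice in 95% oxygen (hyperoxia), adult mice in room air and adult mice in 95% oxygen. Neonatal mice entered at under 12 h of age, spent 72 h in either atmosphere and were collected as day 3 lung. Adults were 2 months old and were also exposed for 72 h. In all groups the pulmonary artery was flushed under ketamine and xylazine anaesthesia, and nursing dams changed between the atmospheres every day. The labels used here do not name the strain, the sex or the number of animals behind a library.

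A miRNA guides a silencing complex to messenger RNAs, mainly through its seed, the stretch near the 5′ end that pairs with the target. The cluster of miR-183, miR-96 and miR-182 is transcribed as 1 unit and is best known from sensory organs, where its members act on overlapping targets. miR-205 marks basal cells of stratified and airway epithelium and represses the ZEB factors that drive loss of epithelial identity. miR-203 promotes differentiation of stratified epithelium by repressing p63, miR-31 is expressed in skin and other epithelia, and miR-375 is a miRNA of pancreatic islets and neuroendocrine cells.

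The mature sequences of 6 members were found in RefSeq (build GRCm38.p6). Those of the cluster are shown because its 3 members differed in their age pattern although they lie on 1 transcript. Capitals mark the seed, bases 2 to 8 counted from the 5′ end.
miR-183: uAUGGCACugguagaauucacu
miR-96: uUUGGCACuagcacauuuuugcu
miR-182: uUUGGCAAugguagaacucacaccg
The seeds of miR-96 and miR-182 share 6 of 7 bases and differ by C8A, and those of miR-96 and miR-183 share 6 of 7 and differ by U2A. Those of miR-182 and miR-183 share 5 of 7 (U2A and A8C). Over their whole length miR-182 and miR-183 were the closest pair of the cluster, with 18 of 22 compared bases alike, against 12 of 23 for miR-96 and miR-182 and 13 of 22 for miR-96 and miR-183. The hairpins lie on the minus strand at chr6:30169668-30169737 (Mir183), chr6:30169446-30169551 (Mir96) and chr6:30165918-30165992 (Mir182). All 3 are inside the long noncoding RNA gene Mirc35hg and span 3820 bases. Mir183 and Mir96 are 116 bases apart, and Mir182 follows after a further 3453 bases.

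Of the other members, miR-205, miR-203 and miR-31 have seeds of their own, shown because each stands for a separate set of possible targets. No mature sequence was found for miR-375.
miR-205: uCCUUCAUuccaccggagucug
miR-203: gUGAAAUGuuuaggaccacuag
miR-31: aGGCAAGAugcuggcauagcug
Mir205 (chr1:193507463-193507530, minus strand) overlaps the noncoding host gene Mir205hg, and Mir31 (chr4:88910557-88910662, minus strand) the noncoding gene Gm49890. Mir203 (chr12:112130880-112130955, plus strand) overlaps a second miRNA gene, Gm51289. Mir375 (chr1:74900658-74900721, minus strand) overlaps no other annotated gene. Of 1679 mature mouse miRNAs in the RefSeq table, 1 shares a whole seed with any of the 6 members whose sequence was found. It is miR-1271-5p, which has the seed of miR-96, and no assay of the panel carries its name.

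Values are log2 levels against snoRNA202, a small nucleolar RNA read on the same card as the miRNA; higher values mean more RNA. They come from threshold cycles (Ct), the cycle at which the signal crosses a set line. All 7 members sit on the first of 2 cards, so a difference between 2 members within a library is free of the reference. No group has a second library, so no difference has a replicate check. The repeat measurements used here are 4 control RNAs read on both cards, each taken relative to that card's snoRNA202. They gave a technical SD of a difference of 0.65 log2 for adult against neonatal room air, 0.95 for adult against neonatal hyperoxia, 0.26 for hyperoxia against room air in the neonate and 0.33 in the adult. In bulk lung, fewer cells of a type and less RNA per cell cannot be told apart. Between 468 and 507 of the 750 assays had a Ct of 35 or below per library, taken here as detected, and 426 were detected in all 4. The 5 miR-200 family members, which mark epithelium, were detected in all 4 libraries, with a Ct of 14.3 to 19.3. Markers of endothelium, leukocytes, mesenchyme, smooth muscle, erythroid cells and striated muscle were also detected in every library.

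All 7 members were detected in all 4 libraries. They fell into 2 bands of Ct. miR-31, miR-203, miR-375 and miR-182 crossed early, at Ct 16.9 to 20.3, and miR-183, miR-205 and miR-96 late, at Ct 24.1 to 27.5. Assays can differ in efficiency, so the bands do not rank the amounts of RNA.

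**Figure D1:**
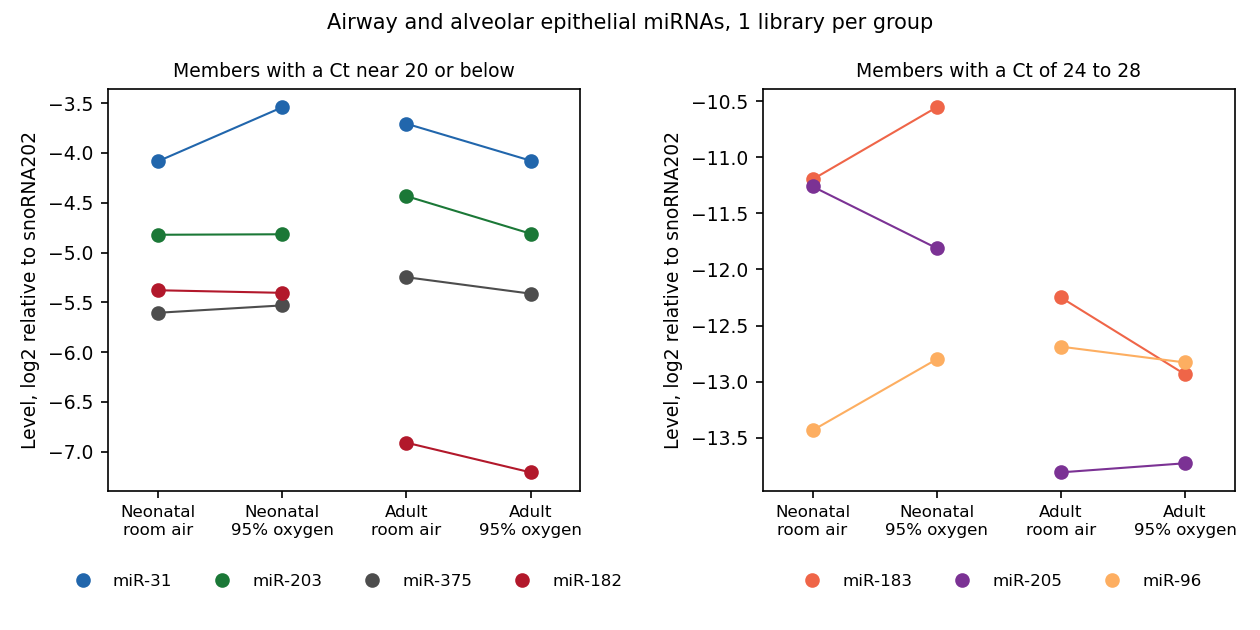
Level of each member in the 4 libraries (log2 relative to own-card snoRNA202, vertical axis; each point is 1 library, and lines join the 2 libraries of an age). miR-182, miR-183 and miR-205 sit lower in both adult libraries than in both neonatal ones, whereas miR-31, miR-203 and miR-375 stay within 0.54 log2 over all 4 libraries.

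The first question is how these miRNAs differ between neonatal and adult lung. miR-205, miR-182 and miR-183 were lower in adult lung, by 2.07-fold to 5.84-fold in room air and 3.49-fold to 5.21-fold in hyperoxia. miR-96, miR-203, miR-31 and miR-375 differed by less than 2-fold in both atmospheres on the snoRNA202 scale, and by 2-fold or more, higher in the adult, with U6 or with each card's median Ct as the reference. The directions of the lower set depended on the reference, being above 0 with U6 for all 3, and for miR-183 in room air also with each card's median Ct as the reference. The separation of the 2 sets does not depend on it, since all 7 were read on 1 card.

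miR-205, the basal-cell miRNA, had a level of -11.26 in the room air neonate and -11.81 in the hyperoxic neonate, and of -13.81 and -13.73 in the room air and hyperoxic adults. Both adult libraries lay below both neonatal ones, with 1.92 log2 between the nearest. The difference was -2.55 log2 in room air and -1.92 in hyperoxia. An additive limma model with terms for age and oxygen was fitted to the 426 assays detected in every library. On its age term miR-205 fell by 2.23 ± 0.34 log2 (SE; adjusted p = 0.0279 by limma with Benjamini-Hochberg adjustment; lower in 2 of 2 adult libraries). That call was lost with snoRNA135 and snoRNA202 averaged (-1.64, limma, adjusted p = 0.0523) and with the library mean (-1.39, limma, adjusted p = 0.106). With the card median the fit was at -0.83 (limma, adjusted p = 0.188) and with U6 at 0.58 (limma, adjusted p = 0.277). No detection limit gave an adjusted p of 0.0900 (limma), so the call held only against snoRNA202 alone and with a detection limit. Over all alternatives the adjusted p of this limma fit ran from 0.00864 to 0.277.

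miR-182 was at -5.38 in neonatal room air and -5.41 in neonatal hyperoxia, and at -6.91 and -7.21 in the corresponding adult libraries. The 2 neonatal values were 0.03 log2 apart and both adult values were at least 1.504 log2 below them. In the additive fit for age it fell by 1.67 ± 0.31 log2 (SE; limma, adjusted p = 0.0374). With snoRNA135 and snoRNA202 averaged it was at -1.08 (limma, adjusted p = 0.0522) and with the library mean at -0.83 (limma, adjusted p = 0.128). With the card median it was at -0.26 (limma, adjusted p = 0.449), and with no detection limit the adjusted p was 0.102 (limma). With U6 miR-182 rose by 1.15 (limma, adjusted p = 0.0431). Over all alternatives its adjusted p from limma ran from 0.00847 to 0.449.

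miR-183 was at -11.20 and -10.56 in neonatal room air and hyperoxia, and at -12.25 and -12.94 in adult room air and hyperoxia. Here too the ages did not overlap, with a gap of 1.05 log2. The fitted age difference of -1.72 ± 0.48 log2 (SE) was as large as that of miR-182 but had a larger SE and missed the threshold (limma, adjusted p = 0.0734). With 1 library per group the only residual is the difference between the oxygen responses at the 2 ages. That was -1.33 log2 for miR-183 and -0.27 for miR-182, so the SE does not measure replicate spread. The age difference of miR-183 passed with 2 other forms of the variance prior (limma, adjusted p = 0.0473 with a prior that follows the level and 0.0355 with a robust one). Its highest adjusted p among the limma alternatives was 0.486.

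miR-96, the third miRNA of the cluster, did not share this. Its level was -13.43 in the room air neonate, -12.80 in the hyperoxic neonate, -12.69 in the room air adult and -12.83 in the hyperoxic adult, so that the room air neonate was the lowest and the ages overlapped. The age difference was 0.75 log2 in room air and -0.03 in hyperoxia, with a fit of 0.36 ± 0.37 (SE; limma, adjusted p = 0.484). It rose with U6 (3.17, limma, adjusted p = 0.00809) and with the card median (1.76, limma, adjusted p = 0.0197), and over all alternatives its adjusted p from limma went up to 0.568.

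Set against each other within a library, the cluster members differed unequally with age. The level of miR-182 exceeded that of miR-96 by 8.06 and 7.40 log2 in the room air and hyperoxic neonates, but by 5.78 and 5.62 in the adults. Relative to miR-96, miR-182 was thus 4.84-fold lower in the adult in room air and 3.42-fold lower in hyperoxia. miR-183 exceeded miR-96 by 2.24 and 2.25 in the neonatal libraries, by 0.44 in the room air adult and by -0.11 in the hyperoxic adult. Relative to miR-96, miR-183 was 3.48-fold lower in the adult in room air and 5.10-fold lower in hyperoxia. miR-182 and miR-183, whose sequences are the closest pair, stayed nearer to each other: the gap between them was 5.82 and 5.15 log2 in the neonates and 5.34 and 5.73 in the adults, with no order by age.

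miR-203, which promotes differentiation of stratified epithelium, was among the steadiest members. It was at -4.82 in both neonatal libraries, at -4.43 in the room air adult and at -4.81 in the hyperoxic adult. Only the room air adult stood off, by 0.38 log2, which is within the technical SD of the age comparison. miR-375 was at -5.61 and -5.53 in the neonatal libraries and at -5.25 and -5.41 in the adult ones, a total range of 0.36 log2. miR-31 was at -4.08 and -3.54 in the room air and hyperoxic neonates and at -3.71 and -4.08 in the adults. The hyperoxic neonate was the highest, and the ages overlapped. None of the 3 passed the fit for age on this scale: miR-203 was at 0.20 ± 0.31, miR-375 at 0.24 ± 0.30 and miR-31 at -0.08 ± 0.39 log2 (SE; limma, adjusted p from 0.570 to 0.883). A missed threshold does not show that the levels were equal. With U6 all 3 rose, by 3.01, 3.05 and 2.73 log2 (limma, adjusted p from 0.00801 to 0.00976), and with the card median by 1.60, 1.64 and 1.32 (limma, adjusted p from 0.0212 to 0.0346).

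**Figure D2:**
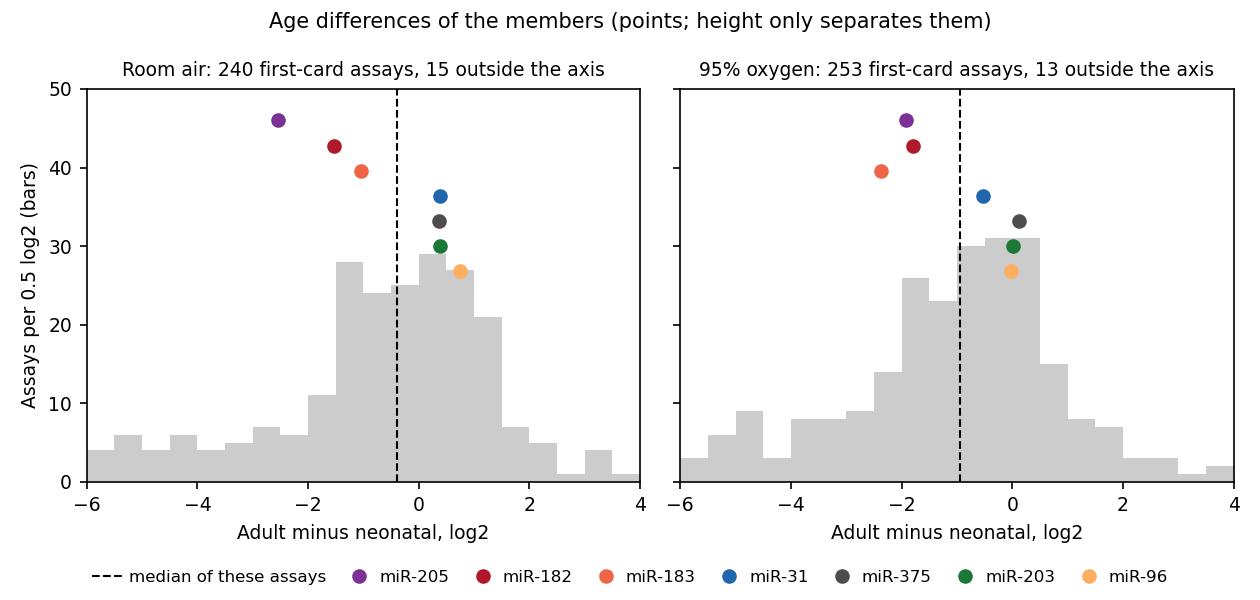
Differences between adult and neonatal lung in room air (left) and 95% oxygen (right), in log2. Grey bars count all first-card assays, the dashed line is their median, and each coloured point is 1 member; miR-205, miR-182 and miR-183 lie below the median in both panels and the other 4 members above it.

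The same 3 members had the lowest age differences in both atmospheres, though in another order among themselves, and the 2 age comparisons share no library. miR-205, miR-182 and miR-183 were grouped here after their values were seen, so that their place below the other 4 follows from the grouping and is only described. Between the 2 sets the nearest pair of members was 1.41 log2 apart in room air and 1.27 in hyperoxia, and the farthest 3.29 and 2.498. Such gaps between members of 1 card are the same under all 6 normalizations tried.

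The members' counts were close to those of the panel. In room air the adult value was 2-fold or more lower for 3 of 7 members, against 43.0% of 435 assays, and 2-fold or more higher for 0 of 7, against 16.6%. In hyperoxia 3 of 7 were lower, against 49.3% of 450, and 0 higher, against 10.9%. The members' median was 0.36 log2 in room air, where that of all assays was -0.57, and -0.54 in hyperoxia, where that of all assays was -0.98. In the additive fit 2 of 7 fell, against 30.0% of 426 assays, and 0 rose, against 5.63% (limma; at an unadjusted p under 0.05, 3 fell and 0 rose, against 175 and 43 of the 426). Both adult libraries were below both neonatal ones for 3 of 7 members, against 55.6% of assays, and above them for 2, miR-203 and miR-375, against 22.5%. An exact permutation test of 2 against 2 libraries cannot go below a two-sided p of 0.333.

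Among the 240 first-card assays of the room air comparison, miR-205 ranked 46 from the lowest, miR-182 ranked 62 and miR-183 ranked 89. The other 4 ranked 160 or higher. In hyperoxia, over 253 assays, miR-183 ranked 67, miR-205 ranked 77 and miR-182 ranked 82, and the others ranked from 152 to 196. These ranks do not depend on the reference RNA. They place no member at the end of the distribution: miR-205 in room air, 2.15 log2 below the median difference of these assays, lay farthest from it. This median of differences is not the card median used as a reference, which is the median Ct of a card in each library. For miR-183 in room air the first gave -0.66 and the second 0.09.

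**Figure D3:**
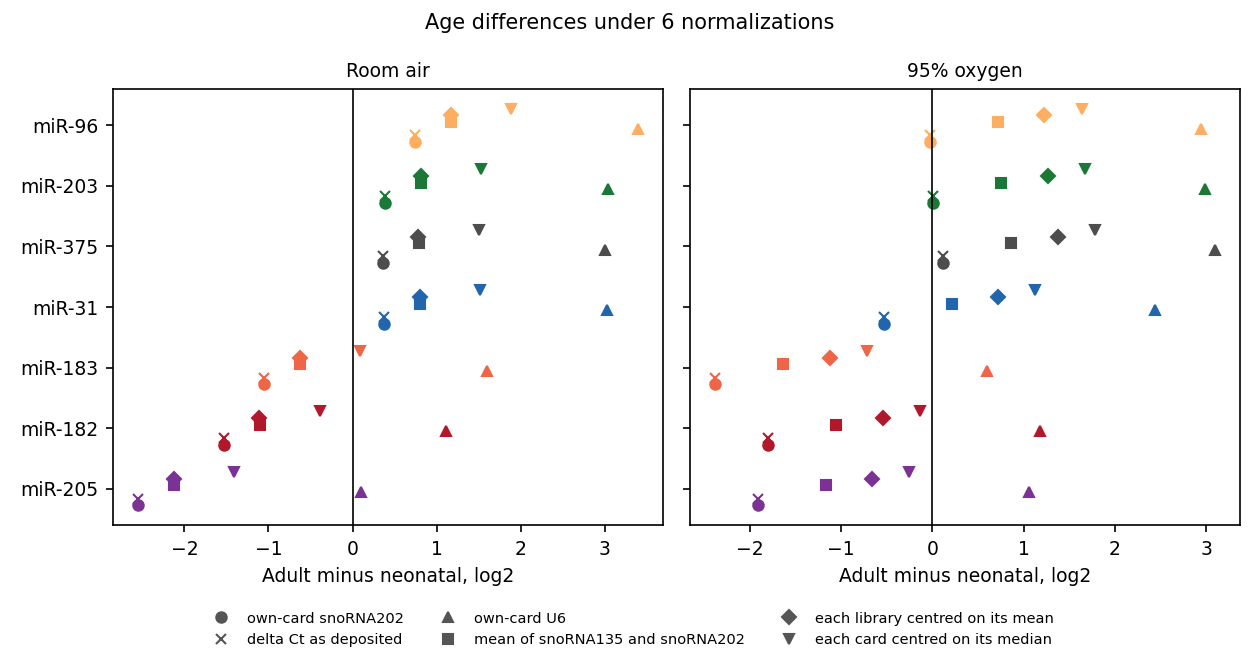
Adult minus neonatal differences (log2) of the 7 members under 6 normalizations, in room air (left) and 95% oxygen (right); each symbol is 1 normalization. The whole set shifts together along the axis, to above 0 with U6, while the distance between miR-205, miR-182 and miR-183 and the other members stays the same.

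The direction of a single member depends on what the references did with age. On the first card, relative to snoRNA202, U6 itself was at -2.65 log2 in room air and -2.98 in hyperoxia, snoRNA135 was at -0.86 and -1.49, U87 at 0.43 and -0.70 and Y1 at 1.35 and 0.97. miR-205 in room air ranged over the 6 normalizations from -2.55 to 0.10 and miR-182 from -1.53 to 1.12, each above 0 only with U6. miR-183 ranged from -1.05 to 1.59 in room air, above 0 with U6 and with the card median. miR-96, miR-203, miR-31 and miR-375 were above 0 in room air under all 6. With no reference at all, the Ct of miR-182, miR-183 and miR-205 was later in both adult libraries than in both neonatal ones, whereas that of miR-96, miR-203 and miR-375 was earlier. Such Ct values are not corrected for RNA input, so they do not settle a direction. On the first card snoRNA202 itself crossed 0.62 cycles earlier in the adult in room air and 0.69 earlier in hyperoxia. For miR-205 the Ct was 25.3 in both neonatal libraries, 27.2 in the room air adult and 26.6 in the hyperoxic adult. For miR-96 it was 27.5 and 26.3 in neonatal room air and hyperoxia, and 26.1 and 25.7 in the adult pair.

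The second question is how the members responded to hyperoxia. The responses were small: 0 of 7 members reached 2-fold at either age. In the neonate 13.6% of 469 assays were 2-fold higher and 8.53% were 2-fold lower, and in the adult 3.79% of 448 were higher and 8.26% lower. In the neonate miR-183 was 0.64 log2 higher after hyperoxia, miR-96 0.63 higher and miR-31 0.54 higher, all beyond the technical SD of 0.26. miR-205 was at -0.55, also beyond it. miR-182, miR-203 and miR-375 were at -0.03, 0.01 and 0.07. The median of all first-card assays was 0.24 in this comparison, so the 3 higher members stood 0.31 to 0.41 above that median and miR-205 stood 0.79 below it, ranking 28 of 267 from the lowest.

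In the adult 6 of 7 members were below 0 on the snoRNA202 scale and miR-205 was at 0.08. miR-183 was at -0.69, miR-203 at -0.38 and miR-31 at -0.37, beyond the technical SD of 0.33. miR-182 was at -0.30, miR-375 at -0.17 and miR-96 at -0.14. With U6, the averaged snoRNAs, the library mean or the card median, miR-203 lay between -0.13 and 0.29. miR-31 lay between -0.12 and 0.30 with these references, and both ranges are within that SD. With each library centred on its mean, only miR-183 was below 0 (-0.018), and the others lay between 0.29 and 0.75. With U6, miR-96, miR-205 and miR-375 were above 0. Against snoRNA202 the first-card median was -0.29 in this comparison. Relative to it, miR-183 stood 0.39 lower, ranking 39 of 246 from the lowest, and miR-205 stood 0.37 higher, while the other 5 stood between -0.08 and 0.15 from it. In the additive fit over both ages 0 of 7 members rose and 0 fell with oxygen (limma; adjusted p of 0.988 or more, 0 members at an unadjusted p under 0.05), and 0% of the 426 assays were called either way, with 5 rising and 8 falling at an unadjusted p under 0.05. That fit takes the response as alike at both ages.

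**Figure D4:**
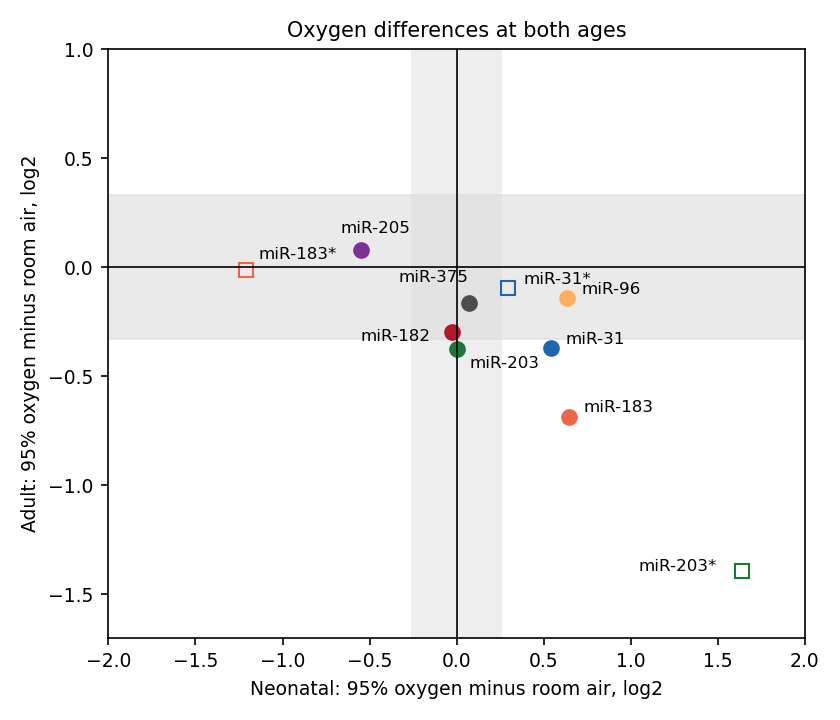
Hyperoxia minus room air in the neonate (horizontal axis) and in the adult (vertical axis), in log2; filled circles are the 7 members and open squares the opposite arms of 3 of them. Grey bands mark 1 technical SD of each comparison, 0.26 and 0.33; on this snoRNA202 scale miR-183, miR-31 and miR-203* lie outside both bands with opposite signs.

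On the snoRNA202 scale miR-183 differed most between the ages among the 7, higher after hyperoxia in the neonate and lower in the adult, with a difference between the responses of -1.33 log2. With each library centred on its mean or each card on its median, miR-205 differed more (1.47 and 1.15, against -0.49 and -0.81 for miR-183). This difference was not tested, since it is the only residual of the design. Its signs were opposite under all 6 normalizations, with differences from -1.33 to -0.49, though its adult response was only -0.018 with the library mean. Those of miR-205 were opposite under all 6 as well, from 0.63 to 1.47. The median difference between the responses over the 236 first-card assays detected in all libraries was -0.48. On the snoRNA202 scale the miR-200 family showed a similar pair of signs: 5 of 5 members were above 0 in the neonate (median 0.73) and 5 of 5 below 0 in the adult (median -0.51). The medians of all first-card assays had these signs too, at 0.24 and -0.29, and miR-429 was at only -0.02 in the adult. Values of this family under other references are not given here. miR-200c, on the same card, was 1.21 log2 higher in the neonate after hyperoxia and at -1.26 in the adult.

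For 3 members the panel also holds the opposite arm of the hairpin, marked with a star. These lie on the second card. A guide and its star arm are cut from 1 precursor, so the panel gives a second reading of the locus.
miR-183*: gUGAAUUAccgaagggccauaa
miR-31*: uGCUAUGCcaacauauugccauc
miR-203*: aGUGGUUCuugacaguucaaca
Against snoRNA202, miR-31* varied as little as miR-31. It was at -8.61 and -8.31 in the room air and hyperoxic neonates and at -8.29 and -8.38 in the adults, and its age difference was within 0.47 log2 of the guide's in both atmospheres. With U6 the arms lay 1.58 and 1.85 log2 apart. miR-31* rose with age when each library was centred on its mean (1.55, limma, adjusted p = 0.0355) or each card on its median (1.08, limma, adjusted p = 0.0464), and its adjusted p ran up to 0.965 over the limma alternatives.

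miR-183* moved opposite to its guide after neonatal hyperoxia, and its age pattern depended on the reference. Against snoRNA202 its level was -7.49 in neonatal room air and -8.70, -8.69 and -8.70 in the other 3 libraries, so that neonatal room air alone was high. Its room air age difference of -1.21 was close to the guide's -1.05, but in hyperoxia it was at -0.01 against -2.38 for the guide. With U6 this was turned round: the star arm was at -0.08 and the guide at 1.59 in room air, whereas in hyperoxia they were at 0.65 and 0.60. The Ct of miR-183* was 22.8 in neonatal room air, 23.3 in neonatal hyperoxia and 22.4 and 22.5 in the adults, so that by Ct alone neonatal room air does not stand out. After neonatal hyperoxia it was at -1.21 while miR-183 was at 0.64, 1.85 log2 apart. The second-card median was -0.04 in that comparison, from which miR-183* stood 1.17 lower. With the card medians as the reference the arms were 1.73 apart and with U6 1.26, the star arm below 0 and the guide above 0 under all 6 normalizations.

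miR-203* crossed late, at Ct 30.8 to 33.2, where the precision was not measured. Its level was -17.93 in the room air neonate and -16.29 in the hyperoxic neonate, and -17.18 and -18.57 in the adults. It was 1.64 log2 higher after hyperoxia in the neonate and 1.40 lower in the adult, while miR-203 was at 0.01 and -0.38. On the snoRNA202 scale none of the 3 star arms was called for age or oxygen (limma, adjusted p of 0.356 or more). Of the other settings, those named above for miR-31* gave a call for age.

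**Figure D5:**
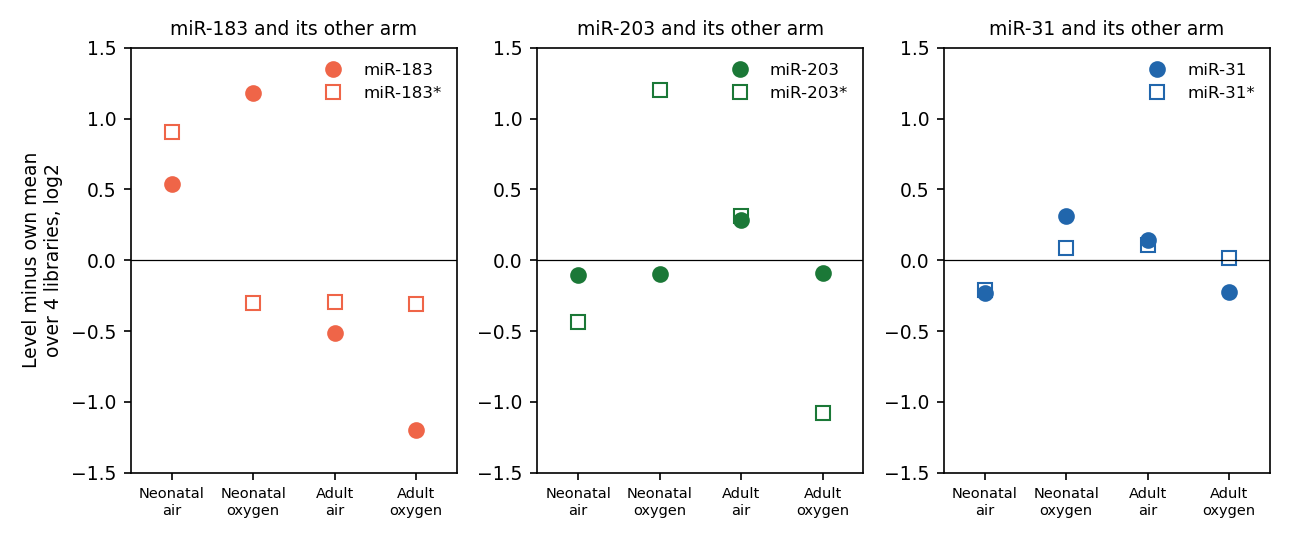
Levels of miR-183, miR-203 and miR-31 (filled circles, first card) and of their opposite arms (open squares, second card) in the 4 libraries, each minus its own mean (log2 relative to own-card snoRNA202). The age differences of the 2 arms of miR-31 lie within 0.47 log2 of each other, whereas on this scale miR-183* is high in neonatal room air alone and miR-203* spans 2.28 log2.

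In the miR-200 family of epithelial miRNAs the age difference ran in room air from -1.16 for miR-429 to 0.84 for miR-200c, and in hyperoxia all 5 members were below 0, from -1.98 to -0.36. The median of all first-card assays was -0.39 in room air and -0.95 in hyperoxia. In the miR-34 and miR-449 family, miRNAs of multiciliated cells, miR-449a was at -3.17 in room air and -3.61 in hyperoxia, lower than any of the 7 members. miR-34c was at 1.30 and 0.87, higher than any of them. Of the rest of this family, miR-34b-3p was at 1.32 in room air, just above miR-34c, but at 0.06 in hyperoxia. miR-34a was at 1.195 and 0.11. On the second card miR-34b-5p was at 0.93 and 0.49, whereas miR-34c* was at -0.39 and -0.63 and miR-449c at -2.02 and -1.67. miR-449b, with a Ct of 17.8 in neonatal room air, was not detected in the other 3 libraries. Of the neuroendocrine miRNAs set beside miR-375, miR-7a was 2.37 log2 higher in the adult in room air and 1.57 in hyperoxia, and miR-9 was at 0.44 and 0.29, against 0.36 and 0.12 for miR-375. miR-124 had a Ct of 40, no crossing, in neonatal room air and of 26.3 to 29.8 elsewhere. Among other cell types, the summed level of the 3 mesenchymal markers was -2.20 and -1.98 log2 in the room air and hyperoxic neonates and -3.40 and -3.82 in the adults. That of the 2 smooth muscle markers was -1.698 and -1.41 in the neonates and -0.48 and -0.61 in the adults. That of the 4 leukocyte markers was -0.56 and -0.19 in the neonates and 0.11 and -0.25 in the adults, and that of the 2 endothelial markers lay between 3.13 and 3.66. The summed miR-200 level was -0.66 and 0.22 in the neonates and -0.19 and -1.03 in the adults. The part of these cell types in the members' differences was not tested.

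The assays whose pattern over the 4 libraries was most like each member's were found by distance between levels centred on their own means, among 341 mouse assays with a Ct of 32 or below throughout. The nearest to miR-182 were miR-18a (distance 0.12 log2) and miR-20a* (0.18), both from the miR-17 cluster. The nearest to miR-183 were miR-301b (0.30) and miR-1932 (0.34), and to miR-205 miR-106b* (0.22) and miR-130b (0.34). miR-96 lay nearest to miR-187 (0.19) and miR-221 (0.22). miR-203 lay nearest to miR-26a (0.08) and miR-30e (0.14), miR-375 to miR-30e (0.10) and miR-143 (0.11), and miR-31 to miR-148a (0.16) and miR-128 (0.17). No member's list held another assay named in the miR-200 or the miR-34 and miR-449 lists. These likenesses rest on 4 libraries and are a description.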

How the data were processed

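Lung RNA of 4 libraries was copied with Megaplex primers, preamplified and read by TaqMan PCR on 2 cards of 384 wells, per the labels' protocols. The authors deposited Ct and delta Ct values, which are log2 units with lower values for more RNA; the settings behind the Ct are not given in the sources. A Ct of 40 marks no crossing. In the adult room air library the 384 wells of the second card and 1 well of the first use the other card's snoRNA202 in the deposited delta Ct (tolerance 0.0015 cycles), so levels were recomputed as the Ct of own-card snoRNA202 minus the Ct of the assay. No member's value changed.

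Comparisons of 2 libraries used assays with a Ct of at most 35 in each. The precision of a difference was described by U6, snoRNA135, U87 and Y1, as the root of their mean squared between-card gap, over the square root of 2. Age and oxygen were fitted as additive terms in limma 3.58.1 (lmFit, eBayes; R 4.3.3) over 426 assays, with Benjamini-Hochberg adjusted p-values called under 0.05, 1 residual degree of freedom and 2.16 prior degrees of freedom. It was tested on simulated data. Nothing says that libraries are separate animals or pools. The p-values reflect only departures from the additive fit, which may be technical or oxygen responses that differ between the ages. They leave out errors of the reference. The assay has no read depth. Named were the 7 members, their opposite arms, assays sharing a seed, and the 2 nearest assays per member. The members and lists were chosen with earlier results of these data known. Alternatives were 5 other normalizations, Ct limits of 32 and none, a 1.5-fold limit, 2 forms of the variance prior and leaving out row L of the first card.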

Additional observations from a re-analysis of the deposited data

Results flagged for a closer look

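Oxygen responses of opposite sign at the 2 ages, each beyond the technical SD of its comparison, were seen for 3 assays, and the difference between the ages was not tested in any of them. For miR-183 the adult response minus the neonatal one was -1.33 log2, with signs opposite under all 6 normalizations and values from -1.33 to -0.49. For miR-31 it was -0.91 log2, with signs opposite under 5 of 6 and values from -0.91 to -0.079. Its adult response of -0.37 was beyond the technical SD of 0.33 only against snoRNA202, deposited values included, and lay between -0.12 and 0.30 with the other references. For miR-203* it was -3.04 log2, opposite under all 6 with values from -3.50 to -2.81, from wells with a Ct of up to 33.2. The median over the 236 first-card assays was -0.48, below 0 like those of miR-183 and miR-31. Each group holds 1 library, so none was examined as an outlier within its group.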

How the results depend on the processing

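The reference decided most of the changes. With U6, 6 of 7 members were at least 2-fold higher in the adult in both atmospheres (all assays: 248 of 435 in room air and 223 of 450 in hyperoxia) and 0 lower, and 5 rose and 0 fell in the limma fit (196 and 71 of 426). With each card centred, 4 were higher in both atmospheres (171 of 435 and 164 of 450), 1 was lower in room air and 0 in hyperoxia (110 and 123), and 4 rose and 0 fell in the fit (136 and 84 of 426). With each library centred on its mean, 1 was higher in room air (147 of 435) and, in hyperoxia, 3 were higher and 1 lower (154 and 120 of 450), with 0 falls in the fit (77 of 426). With snoRNA135 and snoRNA202 averaged, 1 was higher in room air (102 of 435) and 0 fell in the fit (112 of 426). With no detection limit 0 fell (72 of 750). With a 1.5-fold limit, 1 member was higher in adult room air (107 of 435), 2 were higher after neonatal hyperoxia (113 of 469) and 1 lower after adult hyperoxia (88 of 448). Signs turned with U6 for miR-182 (1.12 in room air, 1.18 in hyperoxia, 1.15 in the fit), miR-183 (1.59, 0.60 and 1.10), miR-205 (0.10, 1.06 and 0.58) and miR-31 (2.44 in hyperoxia and 2.73 in the fit). They turned with each card centred for miR-183 in room air (0.0895) and miR-31 in hyperoxia and the fit (1.13 and 1.32), with the library mean for miR-31 (0.72 and 0.76) and for miR-183* in room air (0.25), and with the averaged snoRNAs for miR-31 (0.21 and 0.51). The fit of miR-183* turned with U6 (0.28), the library mean (0.82) and the card median (0.34), that of miR-203* with the same 3 (0.12, 0.66 and 0.18). In hyperoxia miR-96 (-0.03), miR-183* (-0.01) and miR-31* (-0.07) also lay above 0 with each of these 4 references, by up to 2.95, 1.40 and 1.33. The sign turns listed here are those of age differences. With the other forms of the variance prior 3 members fell (161 and 160 of 426). The counts of called members did not change with the deposited delta Ct, a Ct limit of 32 or without row L of the first card, a choice made after seeing the data. No paired analysis was possible because each group has 1 library, and without 1 library the additive fit has no residual. Late assays such as miR-203* have unmeasured precision.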
